A study of Mus musculus with 12 samples.

Results

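The fatty acid elongases and desaturases measured here were Elovl1, Elovl2, Elovl3, Elovl5, Elovl6, Fads1, Fads2, Scd1 and Scd2. Their members were all probe sets that the platform's probe-to-gene table assigns to one of these symbols, which gave 9 genes on 21 probe sets, of 18193 named genes and 45037 probe sets on the array. A probe set combines several short probes. The suffix _x_at, carried by the brightest sets of Elovl1 and Elovl5, marks sets in which some probes may also match other transcripts. Each gene was read by its brightest probe set over all arrays, and every other probe set was kept for comparison. Liver RNA of 12 male C57BL/6 mice was hybridised to Affymetrix arrays, 1 mouse per array. The 4 control mice (replicates 1 to 4) were sham-treated in filtered air, the 4 SHS4m mice (replicates 66 to 69) were taken at the end of 4 months of exposure to secondhand smoke (SHS), and the 4 SHS4m+1m recovery mice (replicates 70 to 73) had 1 further month in clean air after the same exposure. The mice were adult at the start. The labels do not say whether the control mice were held for the recovery month, so a difference of 1 month in age between the controls and 1 of the SHS groups cannot be told apart from the exposure.

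Elongases sit in the endoplasmic reticulum and carry out the condensation step that lengthens a fatty acyl-CoA, after which a ketoreductase, a dehydratase and a trans-2-enoyl-CoA reductase complete the cycle. Desaturases place double bonds with electrons from cytochrome b5. ELOVL6 and the stearoyl-CoA desaturases turn palmitate into stearate and oleate, FADS2, ELOVL5, FADS1 and ELOVL2 act in turn on essential fatty acids to make arachidonate and docosahexaenoate, and ELOVL1 and ELOVL3 make saturated and monounsaturated chains of very long length.

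Promoter sequence was read for the genes for which the RefSeq table (GRCm38.p6) held an entry, which were 5 of 9 members with 7 windows. Elovl3, Fads1, Scd1 and Scd2 had no entry. The 250 bases before the annotated start are shown for Elovl5, Elovl2 and Fads2, the 3 genes called higher after recovery than at the end of exposure. Capitals mark CCAAT on either strand (read as ATTGG on the other) and the palindrome CACGTG, the binding sequences of NF-Y and of E-box factors.
Elovl5, chr9:77917115-77917364, plus strand: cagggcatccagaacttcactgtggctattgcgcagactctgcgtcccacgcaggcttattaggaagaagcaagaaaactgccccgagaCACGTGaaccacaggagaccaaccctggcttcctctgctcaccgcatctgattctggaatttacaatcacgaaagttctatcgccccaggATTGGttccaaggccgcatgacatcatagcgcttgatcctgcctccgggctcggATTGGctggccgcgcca
Elovl2, chr13:41220404-41220653, minus strand: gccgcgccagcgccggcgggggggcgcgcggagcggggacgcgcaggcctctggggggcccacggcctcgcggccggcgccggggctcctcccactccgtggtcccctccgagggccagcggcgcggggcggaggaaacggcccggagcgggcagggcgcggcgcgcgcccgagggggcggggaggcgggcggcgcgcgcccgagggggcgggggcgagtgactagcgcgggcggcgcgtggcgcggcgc
Fads2, chr19:10101504-10101753, minus strand: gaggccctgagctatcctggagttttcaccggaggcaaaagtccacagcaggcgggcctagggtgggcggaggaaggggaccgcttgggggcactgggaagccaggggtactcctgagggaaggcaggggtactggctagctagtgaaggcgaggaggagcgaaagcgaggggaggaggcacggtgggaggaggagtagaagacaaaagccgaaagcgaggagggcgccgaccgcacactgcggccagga
The Elovl5 window held 2 CCAAT motifs, 71 and 17 bases before the start, and 1 CACGTG 161 bases before it. None of the searched motifs was found in the Elovl2 and Fads2 windows, nor was the sterol element TCACNCCAC in any of the 7 windows. Over all 32851 windows of this length, 33.8% held CCAAT, 6.02% CACGTG and 1.05% TCACNCCAC. Of the members, Fads1, Fads2, Scd1, Scd2 and Elovl3 all lie on chromosome 19, with Fads2 at 10062765 to 10101503 and Fads1 at 10182877 to 10196874, and with Scd2 at 44293676 to 44306864 and Scd1 at 44394450 to 44407709.

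Signals were on the deposited linear intensity scale, values under 32 were raised to 32, and differences are between means of log2 signals. A gene was called at a Benjamini-Hochberg adjusted p under 0.05 from limma over all 45037 probe sets. The median signal was 65.1 to 78.1 per array, and 29.9% to 33.5% of probe sets per array were below 32. Recovery replicate 72 had a ratio of 3' to 5' actin signal of 8.82, a measure that rises as RNA degrades, against 3.24 to 4.64 on the other 11 arrays. None of the 8 measured hepatocyte markers (Alb and Apoa1 among them) was called in any comparison. In SHS4m mice against controls their median log2 difference was -0.047, but some did not overlap, as did 11.8% of all probe sets. Apoa1 (60775 to 64033 against 69538.5 to 81179) and Ttr were lower than in every control. Hnf4a and Tat (17236 to 18798 against 5874 to 13001) were higher than in every control. In bulk tissue, fewer cells of a type and less RNA per cell cannot be told apart.

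In SHS4m mice, 4 of the 9 genes were called against controls and all 4 were lower: Elovl2, Elovl3, Elovl5 and Scd1. Over all probe sets, 2.87% were called lower in this comparison, and 5.8% of the 20561 probe sets with a signal of at least 100 on 4 arrays, which are the closer background since 8 of the 9 genes were well above that signal. The median log2 difference of the 9 genes was -0.60, against 0 over all probe sets. Controls and SHS4m mice did not overlap for the same 4 genes, while 11.8% of all probe sets did not overlap. After the recovery month, Elovl3 was still called lower than in controls and Fads2 was called higher, against 1.19% of all probe sets called lower and 0.877% called higher. Of the 20561 brighter probe sets, 2.36% were called lower and 1.84% higher. The groups did not overlap for these genes and Fads1, 3 in all, where 7.61% of all probe sets did not overlap, and the median log2 difference of the 9 genes was -0.033. Recovery mice against SHS4m mice gave 3 called genes, all higher, namely Elovl2, Elovl5 and Fads2 (1.32% of all probe sets called higher, 2.74% of the 20561). No overlap was seen for 5 genes, these and Fads1 and Scd1 (8.24% of all probe sets), and the median log2 difference was 0.48. The comparisons share arrays, the 4 control arrays in the first pair and the SHS arrays in the others, and are not independent of each other.

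**Figure D1:**
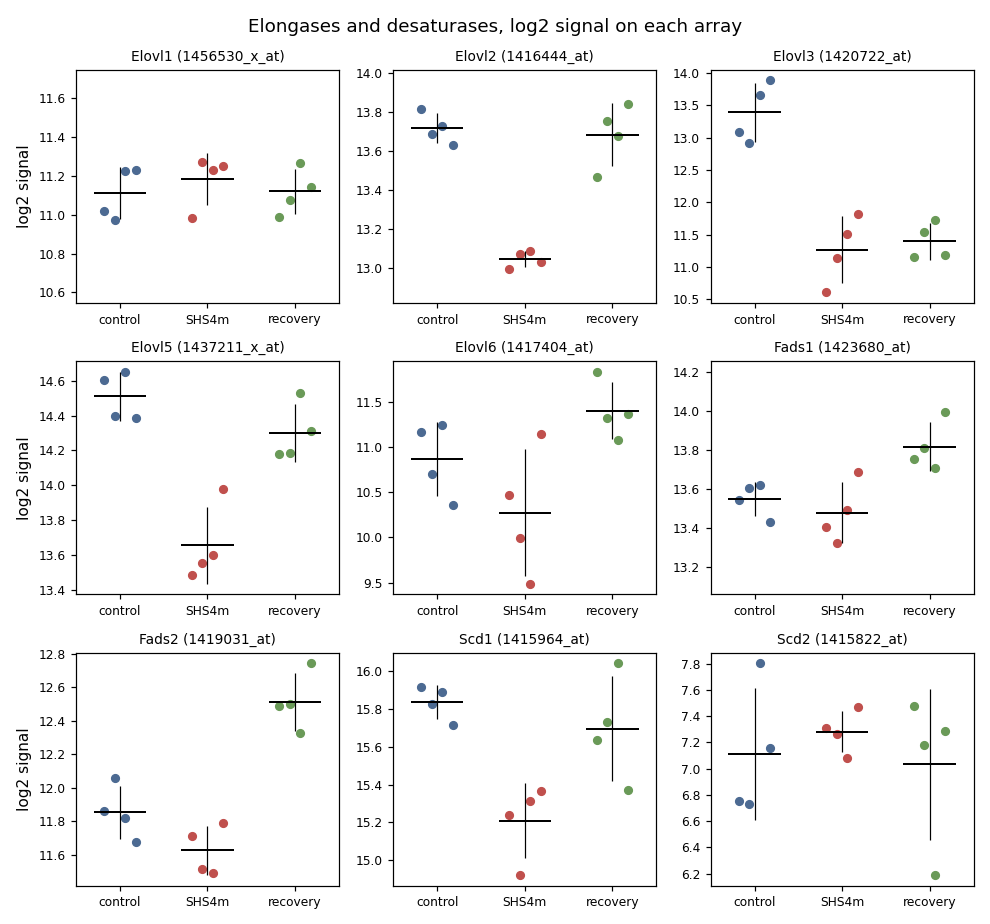
Log2 signal of the 9 genes (vertical axis) on each array, in 3 groups of 4 mice, each gene on its own axis. Points are arrays, horizontal bars group means and vertical bars 1 SD. Elovl2, Elovl5 and Scd1 are lower in SHS4m mice and nearer to controls after recovery, Elovl3 is lower in both SHS groups, and Fads2 is higher after recovery.

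Elovl3 had the largest differences from controls of the 9 genes, each read by its brightest probe set. It elongates saturated and monounsaturated acyl chains, and in mouse liver its transcript is known to follow the time of day and to be higher in males. Its signal on probe set 1420722_at was 8749, 7760, 12906 and 15164 in controls, 1561, 2258, 2922 and 3599 in SHS4m mice and 2267, 2979, 3397 and 2315 in recovery mice. Every SHS-exposed mouse lay below every control, and the 2 SHS groups overlapped. The log2 signal was 13.39 ± 0.456 (SD, n = 4) in controls and 11.27 ± 0.519 (SD, n = 4) in SHS4m mice, a difference of -2.12 (standard error 0.295, limma adjusted p = 0.00396), or 4.35-fold lower. After recovery it was 11.40 ± 0.284 (SD, n = 4), with a difference from controls of -1.99 (standard error 0.295, limma adjusted p = 0.0125), or 3.98-fold lower. Between the SHS groups the difference was 0.13 with a 95% interval of -0.53 to 0.79 (limma adjusted p = 0.969). The interval spans a rise of up to 0.79, so a partial return is not distinguished from none. Elovl3 was the only one of the 9 genes, read by the brightest probe set, that passed the study's threshold against controls, a change of at least 2-fold at an unadjusted p under 0.05, in SHS4m mice and again after recovery. Over all probe sets 2.47% and 1.37% passed it.

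Genes of the circadian clock differed with Elovl3. Of 15 clock genes, Per2, Tef and Ciart were called higher and Clock lower in both SHS groups against controls. Over all probe sets, 2.52% were called higher in SHS4m mice and 0.877% after recovery. None of the 15 was called between the SHS groups. Without a call, Per3 and Dbp were higher in recovery than in SHS4m mice (log2 1.42 and 1.22) and Nfil3 was lower (-1.51), with no overlap. Clock, a core activator, was 2.03-fold lower in SHS4m mice and 2.27-fold lower after recovery (limma adjusted p = 0.0119 and 0.0145). Arntl (log2 -1.64 and -2.28) and Per1 (1.69 and 1.87) passed the study's threshold against controls in both SHS groups, without a call. Tef, a PAR-domain activator of output genes, had a log2 signal 1.05 above controls in SHS4m mice and 1.23 above them after recovery (limma adjusted p = 0.0126 and 0.0145), and Ciart, a repressor of the clock, rose 6.62-fold and 6.05-fold (adjusted p = 0.0215 and 0.048). Within the controls, the 2 arrays with the higher Elovl3 signal, replicates 3 and 4, had Tef signals of 2072 and 1845, against 3101 and 3571 on replicates 1 and 2. Ciart was 60 and 57 on replicates 3 and 4, and 199 and 260 on replicates 1 and 2. Over the 12 arrays, after removal of the group means, the correlation of Elovl3 with Tef was -0.593, with Per2 -0.509, with Ciart -0.395 and with Clock 0.146. Over the 15 clock genes it ran from -0.593 (Tef) to 0.595 (Npas2). These values describe arrays that share 3 groups. The hour at which the livers were taken is not in the labels, and the part of the clock genes' difference in that of Elovl3 was not tested.

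**Figure D2:**
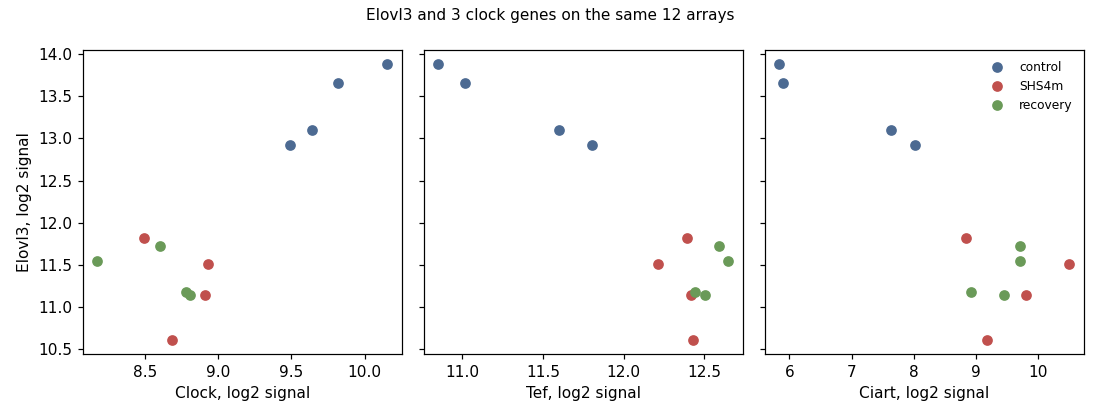
Log2 signal of Elovl3 (vertical axis) against that of Clock, Tef and Ciart (horizontal axes) on the same 12 arrays, each point 1 array coloured by group. The control arrays lie apart from both SHS groups on each axis, and the 2 control arrays with the highest Elovl3 have the lowest Tef and Ciart.

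The elongases of polyunsaturated fatty acids fell with exposure and were higher again after recovery. ELOVL2 lengthens the chains from which docosahexaenoate is made. The signal of Elovl2 was 14425, 13207, 13601 and 12710 in controls, 8144, 8589, 8680 and 8370 in SHS4m mice and 11304, 13824, 13103 and 14688 in recovery mice. SHS4m mice lay below all others with little spread, and recovery mice overlapped controls. The log2 difference from controls was -0.67 in SHS4m mice (standard error 0.0734, limma adjusted p = 0.0013), or 1.6-fold lower, and -0.033 after recovery (95% interval -0.20 to 0.13). Recovery mice were 0.64 above SHS4m mice on the log2 scale (limma adjusted p = 0.00347). In the order of means, controls and recovery mice did not differ beyond their spread, and SHS4m mice were lowest.

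ELOVL5 lengthens polyunsaturated chains of 18 carbons and more. The signal of Elovl5 on 1437211_x_at was 24972, 21605, 25756 and 21390 in controls, 11471, 12036, 12401 and 16123 in SHS4m mice and 18522, 18623, 23666 and 20351 in recovery mice. SHS4m mice again lay below all other mice, with replicate 69 the nearest to the rest. The log2 difference from controls was -0.86 (standard error 0.122, limma adjusted p = 0.00445), or 1.81-fold lower, and -0.21 after recovery (adjusted p = 0.537, 95% interval -0.48 to 0.064). A log2 difference of 0.65 separated recovery from SHS4m mice (limma adjusted p = 0.0272), and leaving out any 1 of SHS4m replicates 66 to 68 or of recovery replicates 71 to 73 ended this call (log2 0.57 without replicate 72). A second probe set of Elovl5, 1415840_at, had differences of -0.83 from controls in SHS4m mice (limma adjusted p = 0.0029) and 0.75 between the SHS groups (adjusted p = 0.00805), and its 12 log2 signals correlated with the brightest at 0.963.

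**Figure D3:**
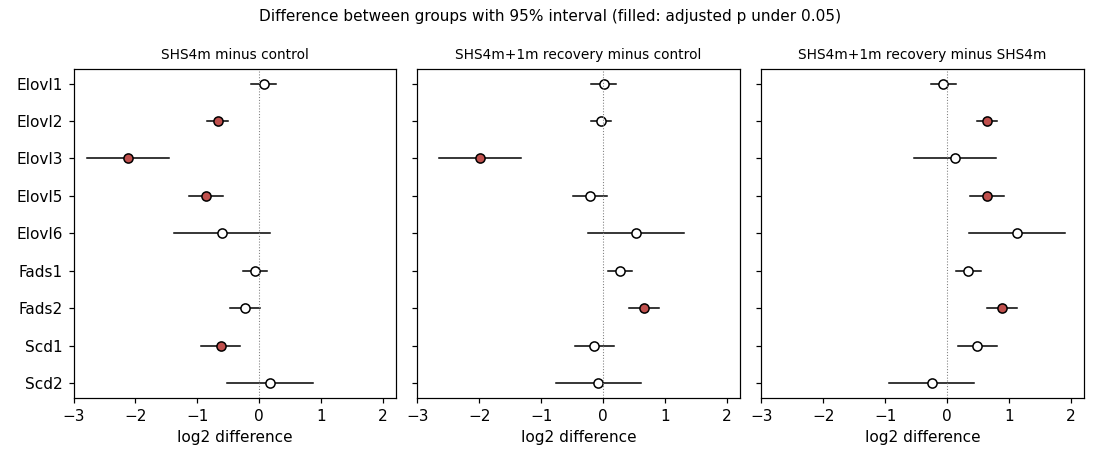
Log2 difference (horizontal axis) between groups for the 9 genes with 95% intervals, in 3 comparisons. Filled points are calls at an adjusted p under 0.05. In the first panel 4 genes lie below 0 and are called, in the third 3 lie above 0, and Elovl3 is the gene furthest from 0 in the first and second.

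Among the desaturases of the same pathway, Fads2 was called higher after recovery than in either other group. FADS2, the delta-6 desaturase, takes the step that starts the conversion of essential fatty acids. Its signal on 1419031_at was 3715, 4259, 3613 and 3269 in controls, 3353, 2920, 2873 and 3539 in SHS4m mice and 5737, 5787, 5135 and 6860 in recovery mice. All recovery mice lay above all other mice, and controls and SHS4m mice overlapped. The log2 difference from controls was -0.23 in SHS4m mice (limma adjusted p = 0.331, 95% interval -0.47 to 0.018) and 0.66 after recovery (standard error 0.11, limma adjusted p = 0.0189), or 1.58-fold higher. Between the SHS groups it was 0.89 (adjusted p = 0.00497), or 1.85-fold. The call against controls was lost without any of control replicates 1, 3 and 4 or recovery replicate 71 (limma adjusted p up to 0.0564). Of the other probe sets, 1449325_at had log2 differences from controls of -0.35 in SHS4m mice (adjusted p = 0.0511) and 0.25 after recovery (adjusted p = 0.224), with no overlap in either, and 0.60 between the SHS groups (adjusted p = 0.0089). The values on 1443838_x_at were -0.16, 0.68 and 0.84, with none called. The size of the recovery-month difference from controls therefore depended on the probe set, while all 3 probe sets were higher in recovery than in SHS4m mice.

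FADS1, the delta-5 desaturase, makes arachidonate and eicosapentaenoate. Its signal was 11926, 12462, 12613 and 11041 in controls, 10853, 10230, 11512 and 13194 in SHS4m mice and 13838, 14385, 13384 and 16339 in recovery mice. All recovery mice lay above the other 8, with no call. The log2 difference from controls was -0.074 in SHS4m mice and 0.27 after recovery (adjusted p = 0.184), and 0.34 between the SHS groups (limma adjusted p = 0.0826). The dimmer probe set 1440444_at, with signals of 97 to 213 and a correlation of 0.434 with the brightest, had differences of -0.49, 0.11 and 0.60 in the 3 comparisons, with none called (limma adjusted p = 0.176, 0.886 and 0.133). Between the SHS groups, Fads1 was called with the mean of both probe sets (adjusted p = 0.028) and without SHS4m replicate 69 (0.0401). After removal of group means, Fads1 and Fads2 had a correlation of 0.756 over the 12 arrays.

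Scd1, the main stearoyl-CoA desaturase of the liver, ranked between 26th and 168th by signal on the arrays. On 1415964_at the signal was 61866, 58088, 60770 and 53688 in controls, 38628, 31016, 40778 and 42206 in SHS4m mice and 50914, 54449, 67421 and 42312 in recovery mice. SHS4m mice lay below all other mice, recovery replicate 73 just above them. Among recovery mice replicate 72, the array with the high actin ratio, was highest and replicate 73 lowest. The hepatocyte markers Alb (70261 and 39557) and Apoa1 (88707 and 57669) had the same extremes, while Hnf4a and Tat were not highest on replicate 72. The reason was not tested. The log2 difference was -0.63 in SHS4m mice (standard error 0.14, limma adjusted p = 0.0313), or 1.54-fold lower, and leaving out any single control, or any 1 of SHS4m replicates 66 to 68, ended the call (adjusted p up to 0.0823, log2 -0.53 to -0.67). On the dimmer probe set 1415965_at, with signals of 4620 to 8975 in controls and 2007 to 3314 in SHS4m mice, the difference was -1.31 (limma adjusted p = 0.021), or 2.49-fold. After recovery the 2 probe sets differed from controls by -0.14 and -0.42 and from SHS4m mice by 0.48 and 0.89, with none called. Their 12 log2 signals correlated at 0.708, and they ordered the recovery mice differently. On 1415965_at replicate 73 was the highest recovery mouse (7194) and replicate 72 was at 4283. The difference of Scd1 from SHS4m mice was called with quantile normalization (limma adjusted p = 0.034) and with the mean of both probe sets (0.0359). The 95% interval on 1415964_at was -0.46 to 0.17 against controls and 0.17 to 0.80 against SHS4m mice.

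Scd2, the stearoyl-CoA desaturase best known outside the adult liver, had signals of 73 to 223 on its brightest probe set over all arrays. Its log2 differences were 0.17, -0.078 and -0.25 in the 3 comparisons, and none of its 3 probe sets was called. The dimmer probe sets were at the floor on some arrays, so that a change could only partly show.

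**Figure D4:**
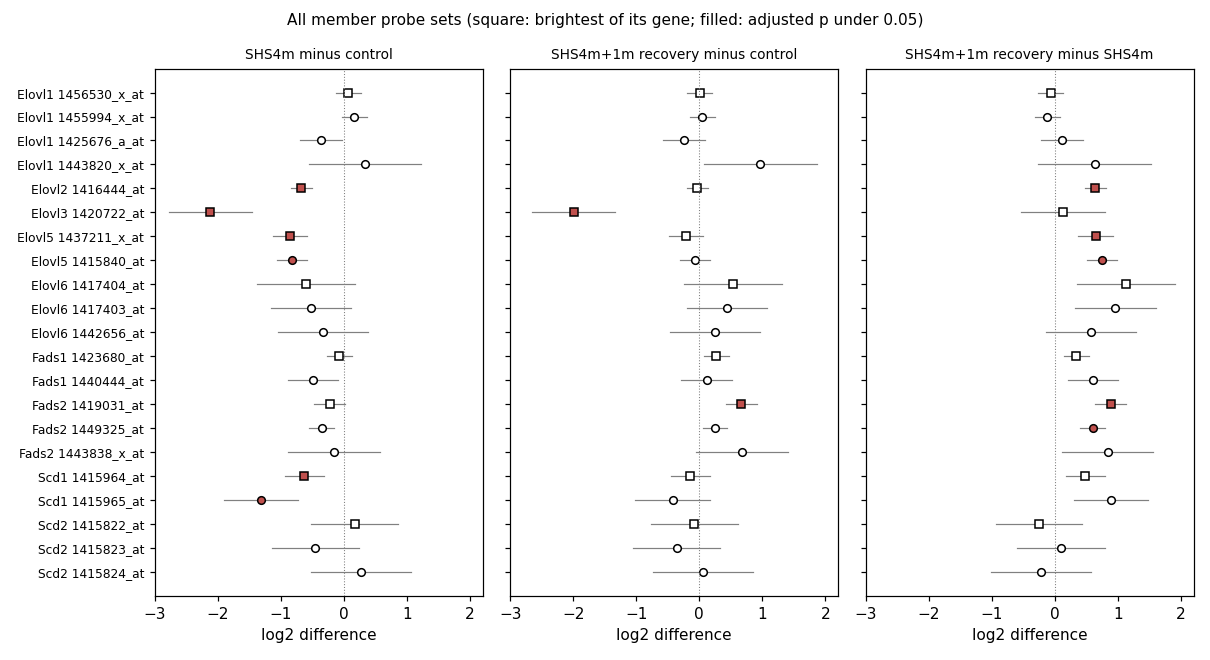
Log2 difference (horizontal axis) with 95% intervals for all 21 probe sets of the 9 genes in 3 comparisons. Squares are the brightest probe set of a gene, filled symbols calls at an adjusted p under 0.05. The probe sets called number 6, 2 and 5, and the 2 probe sets of Elovl5 and of Scd1 are called together in the first panel.

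ELOVL6 lengthens palmitate to stearate and is grouped with the genes of de novo fatty acid synthesis. The signal of Elovl6 on 1417404_at was 2296, 1673, 2430 and 1316 in controls, 1418, 1018, 718 and 2261 in SHS4m mice and 3658, 2556, 2173 and 2652 in recovery mice. All 3 groups overlapped. The log2 difference was -0.60 in SHS4m mice and 0.53 after recovery, neither called (limma adjusted p = 0.443 and 0.603). Between the SHS groups it was 1.13 (adjusted p = 0.145), or 2.19-fold, the only member that passed the study's threshold in this comparison, against 1.7% of all probe sets. The next brightest probe set, 1417403_at, had a difference of 0.96 and no overlap between the SHS groups, and correlated with the brightest at 0.981. The spread in SHS4m mice, 0.705 (SD of log2 signal), was the largest of the 3 groups.

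Of the 10 genes of fatty acid synthesis fixed as a list, Me1 and Mid1ip1 fell in SHS4m mice and Acaca rose after recovery over controls. Acaca, Fasn and Mid1ip1 were higher in recovery than in SHS4m mice. Over all probe sets, 2.87% were called lower in SHS4m mice, 0.877% higher after recovery and 1.32% higher between the SHS groups. Fasn, which makes palmitate, had a signal of 2523, 2402, 6115 and 2595 in controls, 1861, 1672, 1555 and 2927 in SHS4m mice and 6439, 5768, 5213 and 5917 in recovery mice. Only control replicate 3 reached the recovery range. Its log2 difference between the SHS groups was 1.58 (limma adjusted p = 0.0291), or 3-fold, and 0.89 from controls after recovery (adjusted p = 0.207). Mid1ip1, an activator of acetyl-CoA carboxylase, differed by -1.49 in SHS4m mice (limma adjusted p = 0.0184) and by 1.93 between the SHS groups (adjusted p = 0.0101). For Acaca, which makes malonyl-CoA, the differences were 0.62 over controls after recovery (adjusted p = 0.012) and 0.69 between the SHS groups (adjusted p = 0.00627). Me1, a source of NADPH, differed by -0.79 in SHS4m mice (adjusted p = 0.0354). The list median was -0.58, 0.043 and 0.51 in the 3 comparisons. After removal of group means, Elovl6 had correlations of 0.834 with Thrsp, 0.735 with Mid1ip1 and 0.688 with Fasn over the 12 arrays. With Me1, Acly and Acaca they were 0.574, 0.54 and 0.16. With the regulators Srebf1 and Mlxipl they were 0.081 and -0.581.

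**Figure D5:**
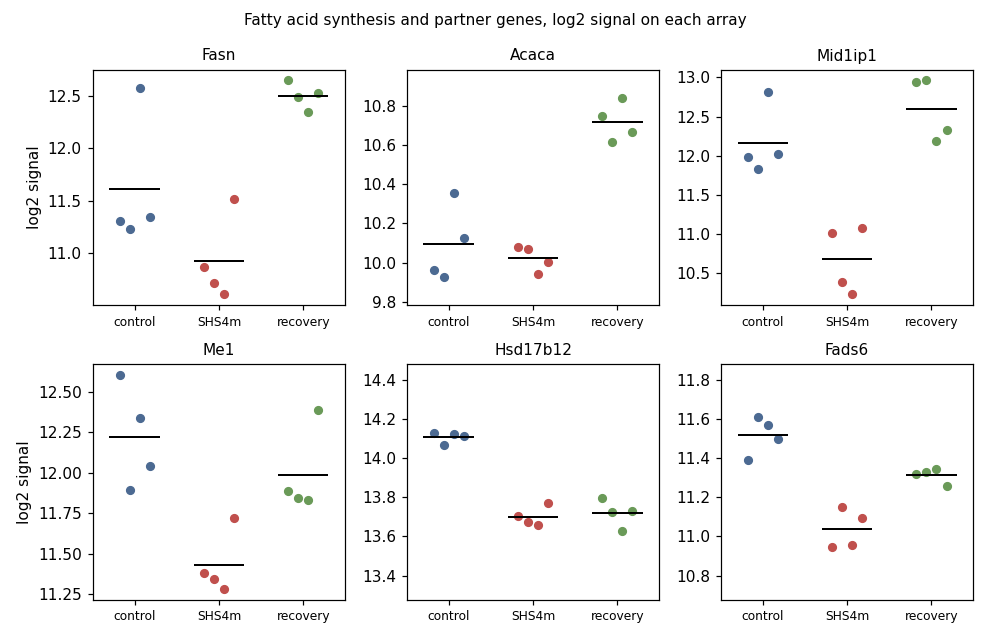
Log2 signal (vertical axes) on each array, in 3 groups of 4 mice, for 4 genes of fatty acid synthesis (Fasn, Acaca, Mid1ip1, Me1), for the ketoreductase Hsd17b12 and for the desaturase homologue Fads6, each on its own axis. Points are arrays and bars group means. Fasn, Acaca and Mid1ip1 are higher in recovery than in SHS4m mice, and Hsd17b12 is lower in both SHS groups.

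ELOVL1 lengthens saturated chains of very long length. The signal of Elovl1 was 2013 to 2403 in controls, 2023 to 2472 in SHS4m mice and 2034 to 2466 in recovery mice on 1456530_x_at, and the groups overlapped. Log2 differences were 0.071, 0.0076 and -0.063 and the 95% interval was -0.13 to 0.27 in SHS4m mice. None of its 4 probe sets was called, and the other 3 correlated with the brightest at 0.704, 0.334 and -0.201 over the 12 arrays.

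Among the 14 measured partners of elongation and desaturation, Hsd17b12, the ketoreductase of the cycle, was called lower in both SHS groups. Its signal was 17144.8 to 17873.5 in controls, 12942.9 to 13976.1 in SHS4m mice and 12661.2 to 14234.2 in recovery mice. The control range lay above all SHS-exposed mice. Log2 differences were -0.40 (limma adjusted p = 0.000662) and -0.39 (adjusted p = 0.0037), the same direction as Elovl3, with 0.019 between the SHS groups. These values are from the brightest probe set alone. The paper lists Hsd17b12 as lower on another probe set, with a larger log ratio. Fads6, a desaturase homologue, differed by -0.48 in SHS4m mice (adjusted p = 0.00214) and by 0.28 between the SHS groups (adjusted p = 0.0399). Hacd2, a dehydratase, was lower in recovery than in SHS4m mice by 0.38 on the log2 scale (limma adjusted p = 0.0493), though the groups overlapped. Tecr, Cyb5a, Cyb5b and Cyb5r3 were not called in any comparison.

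Of 15 measured regulators of these genes, 3 were called higher in SHS4m mice (Rxra, Ppargc1a and Ppargc1b) and 3 lower (Scap, Nr0b2 and Onecut1). Over all probe sets, 2.52% were called higher and 2.87% lower in this comparison. Of the 20561 brighter probe sets, these shares were 5.2% and 5.8%. Ppargc1a, a coactivator known to rise in fasting, differed by 1.74 (limma adjusted p = 0.00422) and by -1.68 between the SHS groups (adjusted p = 0.00886). Scap, which escorts the SREBP factors out of the endoplasmic reticulum, differed by -0.25 and 0.27 in the same 2 comparisons. Insig2, which retains them there, differed by -1.62 after recovery against controls (limma adjusted p = 0.00565). Between the SHS groups Insig2 differed by -1.25 (adjusted p = 0.00886), and in SHS4m mice against controls by -0.37 without a call. Srebf1 had log2 differences of -0.072, 0.52 and 0.59 and was not called. Of the 6 measured genes of the peroxisomal end steps of docosahexaenoate synthesis, Acaa1b and Scp2 fell in SHS4m mice (log2 -0.43 and -0.35), and of 8 acyl-CoA synthetases and activators only Dbi, an acyl-CoA binding protein, was called, by -0.31 (limma adjusted p = 0.0266). Of 9 sex-biased liver genes, the male-biased Slco1a1, Serpina12 and Hsd3b5 fell in SHS4m mice (log2 -1.85, -2.14 and -2.22) and the female-biased Cyp2b9 rose by 2.09. The same 3 male-biased genes were called higher in recovery than in SHS4m mice (log2 1.53, 1.55 and 1.84). Over all probe sets 1.32% were called higher there, and 2.74% of the 20561 brighter ones. Others on the list, Mup3, Cyp7b1 and Cyp4a12a, differed by -0.079, -0.17 and 0.21 between the SHS groups, without a call. None of the 9 was called between recovery mice and controls. There Slco1a1, Serpina12 and Hsd3b5 still differed by -0.32, -0.58 and -0.38 and Cyp2b9 by 0.92, with a list median of -0.32.

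Genes whose signal was most like that of a called member were named as the 5 with the highest correlation among 9609 genes over the 12 arrays, as a description. For Elovl2 these were Tmem170 (0.978), Trim34a, Keg1, Daam1 and H2aw, for Elovl3 Tfpi2 (0.952), Plxna2, Smagp, Slc30a10 and Cela1, and for Elovl5 Nudt7 (0.967), Svil, Hsd3b5, Idi1 and 1810008I18Rik. For Fads2 they were Plekhg3 (0.923), Ssh2, Fads1, Ambra1 and Hgfac, and for Scd1 Dbi (0.977), Cox5a, Ghr, Scp2 and Qdpr. These correlations include the differences between groups. After removal of group means all were lower, from 0.249 (Hgfac with Fads2) to 0.938 (Dbi with Scd1), and Plekhg3 with Fads2 was at 0.418.

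Some marker genes of other cell types differed on the same arrays. Of 4 measured adipocyte markers, Lep was at the floor on all 12 arrays and Fabp4 differed by 1.10 in SHS4m mice (limma adjusted p = 0.0169) and by -1.67 between the SHS groups (adjusted p = 0.00524), opposite in sign to Elovl2 and Elovl5. The summed signal of the 4 was 739 to 1112 in controls, 1667 to 2229 in SHS4m mice and 507 to 803 in recovery mice. Most of it was Fabp4, at 677 to 1006, 1556 to 2212 and 401 to 745, so the sum is in effect that of 1 gene. Adipoq and Retn had signals under 84 on every array and were not called, with log2 differences of -0.051 and 0.17 in SHS4m mice and 0.31 and -0.43 between the SHS groups. Of 8 Kupffer cell and macrophage markers, 6 had negative log2 differences in SHS4m mice, with a list median of -0.33, and 0.15 between the SHS groups. Clec4f was called lower in SHS4m mice (log2 -0.51, limma adjusted p = 0.0173) and higher in recovery than in SHS4m mice (0.46, adjusted p = 0.0442), the directions of Elovl2 and Elovl5. Marco was called in the other direction in SHS4m mice (log2 1.90, limma adjusted p = 0.0137). Of 6 measured blood cell markers, only Ptprc, carried by all white blood cells, was called. It also moved as Elovl2 and Elovl5 did, with -0.73 in SHS4m mice (limma adjusted p = 0.0166) and 0.64 between the SHS groups (adjusted p = 0.0466). The list median was -0.26 and 0.32 in these comparisons. S100a8 (195 to 739 in SHS4m mice, 195 to 484 in controls) and the dim Hba-a1 had higher means in SHS4m mice, with overlap. Stellate cell, endothelial and cholangiocyte markers were not called. The part of these changes in the members' differences was not tested.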

How the data were processed

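RNA from the livers of 12 mice was hybridised to whole-genome Affymetrix mouse arrays. The authors processed the arrays in Affymetrix Expression Console (per the submitters' processing notes) and deposited linear signal intensity values, 1 column per array. How probes were summarised into probe sets was not given in the sources used here. The values appear scaled between arrays, so that differences are relative to an average array. Here, 64 control probe sets were left out, values under 32 were raised to 32 and log2 was taken. In the platform annotation 34945 probe sets name 1 gene, 932 several and 9160 none, and members were read only from probe sets naming that gene alone. All 45037 probe sets were fitted with limma 3.58.1 in R 4.3.3 in 1 model of the 3 groups with two-sided p-values and Benjamini-Hochberg adjustment, and the script was tested on simulated data. Array number, 4 per group, limits the precision. Labels do not say that mice came from separate cages or litters, so p-values measure the spread between these mice. No 2 arrays held identical values.

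Alternatives were quantile normalization, centring of each array on its median, a floor at the 25th percentile, no floor with a pseudocount of 16, only probe sets with a signal of at least 100 on 4 arrays, only the 8 arrays of 2 groups, a trended and robust variance model, the mean of all probe sets of a gene, the study's threshold and leaving out each array. With centring, 60.9% of all calls in SHS4m mice against controls were higher, against 46.7% without, and 57.3% against 42.4% after recovery, so the shares of probe sets called lower depend on scaling (1.6% in place of 2.87%, and 0.451% in place of 1.19%). Named were all members, in each list the genes called in at least 1 comparison (at most 6, by adjusted p, beside which Ppargc1b was named as a seventh regulator after its values were seen), and for each called member the 5 most correlated genes with a mean log2 signal of at least 7. Some uncalled genes and the within-group correlations were chosen after their values were seen. The members and lists were chosen with earlier results of these data known. Promoter windows and gene positions came from RefSeq GRCm38.p6.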

Additional observations from a re-analysis of the deposited data

Results flagged for a closer look

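Elovl2, Elovl5 and Fads2 changed differently from controls in the 2 SHS groups, which share the 4 control arrays. The difference between the changes, recovery minus SHS4m, equals the direct difference of these groups and was 0.641 for Elovl2, 0.647 for Elovl5 and 0.889 for Fads2 on the log2 scale (limma adjusted p = 0.00347, 0.0272 and 0.00497). Dixon's gap test was run on 63 groups of 4 arrays, of which chance flags about 1 in 20, and it marked 2 single low arrays of Elovl1, with a gap of 0.97 of the group's range for recovery replicate 70 on 1455994_x_at and 0.853 for SHS4m replicate 66 on 1456530_x_at.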

How the results depend on the processing

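The number of members called was 3 to 4 in SHS4m mice against controls, 1 to 2 after recovery and 2 to 4 between the SHS groups when each array was left out in turn. The call count after recovery was 1 with no floor and a pseudocount of 16, 1 with only the 8 arrays compared, 1 with the mean of all probe sets, and 1 without control replicate 1, 3 or 4 or recovery replicate 71. Between the SHS groups it was 5 with the mean of all probe sets, which added Fads1 (limma adjusted p = 0.028) and Scd1 (0.0359), 4 with quantile normalization, which added Scd1 (0.034), and 4 without SHS4m replicate 69, which added Fads1 (0.0401). At the study's threshold 1 member passed in each comparison, each gene read by its brightest probe set. In SHS4m mice against controls, Scd1 also passed on its dimmer probe set 1415965_at (log2 -1.31). Elovl3 was called against controls, in SHS4m mice and after recovery, under every alternative run, and Elovl2 in SHS4m mice and between the SHS groups under all but the study's threshold. The Scd1 call in SHS4m mice was lost with the other floor and with the pseudocount (adjusted p = 0.0533 and 0.0638), as was the Elovl5 call between the SHS groups (0.0519 and 0.0667), which was also lost with only the 8 arrays (0.0827). The Fads2 call after recovery was lost with the pseudocount (0.0636), with only the 8 arrays (0.0672) and with the mean of its probe sets (0.123). Differences that changed sign were all uncalled and small. After recovery against controls, Elovl1 was -0.0214 with quantile normalization, and -0.0416 to 0.051 with single arrays left out, Elovl2 was 0.0465 with centring and -0.0852 to 0.0407, and Scd2 was 0.000795 with centring and -0.23 to 0.20. Fads1 in SHS4m mice was 0.00425 with centring. With the mean of probe sets, Scd2 in SHS4m mice was -0.00207 and Elovl1 between the SHS groups 0.14. With single arrays left out, Elovl3 between the SHS groups was -0.0905 to 0.31 and Scd2 -0.40 to 0.0305. The causes were not tested. No paired analysis was possible because the groups share no replicate numbers.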
